A study of Macaca mulatta with 30 samples.

Results

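Glucagon (GCG), the prohormone convertase PCSK2, the islet glucose-6-phosphatase G6PC2 and the transcription factor PAX6 were examined across 5 rhesus macaque tissues, with pancreas set against cerebral cortex. All probe sets whose platform annotation gave one of these 4 symbols and no other symbol were taken, which made 6 probe sets, 1 for GCG, 2 for PCSK2, 1 for G6PC2 and 2 for PAX6. They are 6 of the 24969 probe sets with a single symbol and of the 52865 probe sets in all.

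The endocrine pancreas consists of islets of hormone cells scattered through a much larger mass of enzyme-secreting acinar tissue. In alpha cells PCSK2 cuts the GCG precursor to glucagon, the hormone that raises blood glucose, and in beta cells it takes part in cutting proinsulin. G6PC2 hydrolyses glucose 6-phosphate in islet cells, while PAX6 is a paired-box factor needed for islet hormone cells. PCSK2 is also a convertase of neuropeptide precursors in brain, and PAX6 is also a factor of the developing and adult forebrain.

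Total RNA from pancreas, cerebral cortex, testis, thymus and an immortalized fibroblast cell line of Macaca mulatta was measured on the rhesus macaque GeneChip. Per the methods, pancreas, testis and thymus RNA was prepared at Oregon, cerebral cortex RNA at Yerkes and fibroblast RNA at Nebraska. The RNA of each tissue went as 2 aliquots to each of these 3 centers, and each aliquot was labeled and hybridized on its own, which made 30 arrays, 6 for each tissue and 10 for each center. No treatment was given, and the age of the animals was not given in the sources used here. The arrays of a tissue are technical replicates of 1 RNA, so every p-value below measures labeling and hybridization only, and tissue cannot be told apart from the animal and the RNA preparation. SDs over 6 arrays also hold the level differences between centers, which the fitted standard errors (SE) leave out through a center term.

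The tissue labels were checked against marker lists. All 13 measured genes of acinar cells were higher in pancreas than in cerebral cortex, with list means of 13.04 to 13.60 on the log2 scale on pancreas arrays against 5.81 to 6.71 on cerebral cortex arrays. Of 7 measured duct markers, MUC1, CFTR, KRT19 and KRT7 were higher in pancreas, AQP1 was lower (-0.87), and SOX9 and SPP1 were not called, while KRT19 and KRT7 were highest in thymus. Of 8 neuronal markers, 7 were lower in pancreas and ENO2 was higher, and of 6 glial markers 5 were lower and ALDH1L1 was higher. The paper rated the pancreas arrays as lower in quality than those of the other tissues, by their array scaling factors and standardized errors. It advised caution with the pancreas data, and this holds for every pancreas difference below. Pancreas arrays had the narrowest interquartile range of log2 signal, at 1.46 to 1.54, against 1.59 to 1.82 in cerebral cortex. The 3' over 5' control excess of ACTB and GAPDH averaged 1.66 (1.04 to 2.04) in pancreas against 0.64 (0.34 to 0.99) in cerebral cortex, and was higher still in fibroblast at 1.88 (1.34 to 2.61). All 4 measured red blood cell genes were higher in pancreas, with a median log2 difference of 0.77. Across all probe sets the median pancreas minus cerebral cortex difference was 0.19. By the rule for calls given below, 48.7% of all probe sets were higher and 27.4% lower in pancreas, and the marker counts stand beside these shares. The part of these shifts in the results below was not tested beyond the values given beside them.

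Of the 4 genes, GCG and G6PC2 were higher in pancreas than in cerebral cortex, while PCSK2 and PAX6 were lower with both of their probe sets. For PAX6 the call was lost with both probe sets after joint quantile normalization of the 30 arrays (-0.01 and -0.05, adjusted p = 0.916 and 0.718, limma), and with the first one after averaging of the aliquots (adjusted p = 0.073, limma). A call is an adjusted p (limma, Benjamini-Hochberg over all 52865 probe sets) under 0.05. By that rule 48.7% of all probe sets were higher and 27.4% were lower in pancreas, so a call in itself is common and the sizes carry the description. Relative to the median shift of 0.19, 46.5% of the calls were in the higher direction, against 64.0% for the differences as fitted, and each of the 6 probe sets kept its direction and call. In bulk RNA, fewer cells of a type and less RNA per cell cannot be told apart. The plot of log2 signal by tissue shows every array.

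**Figure D1:**
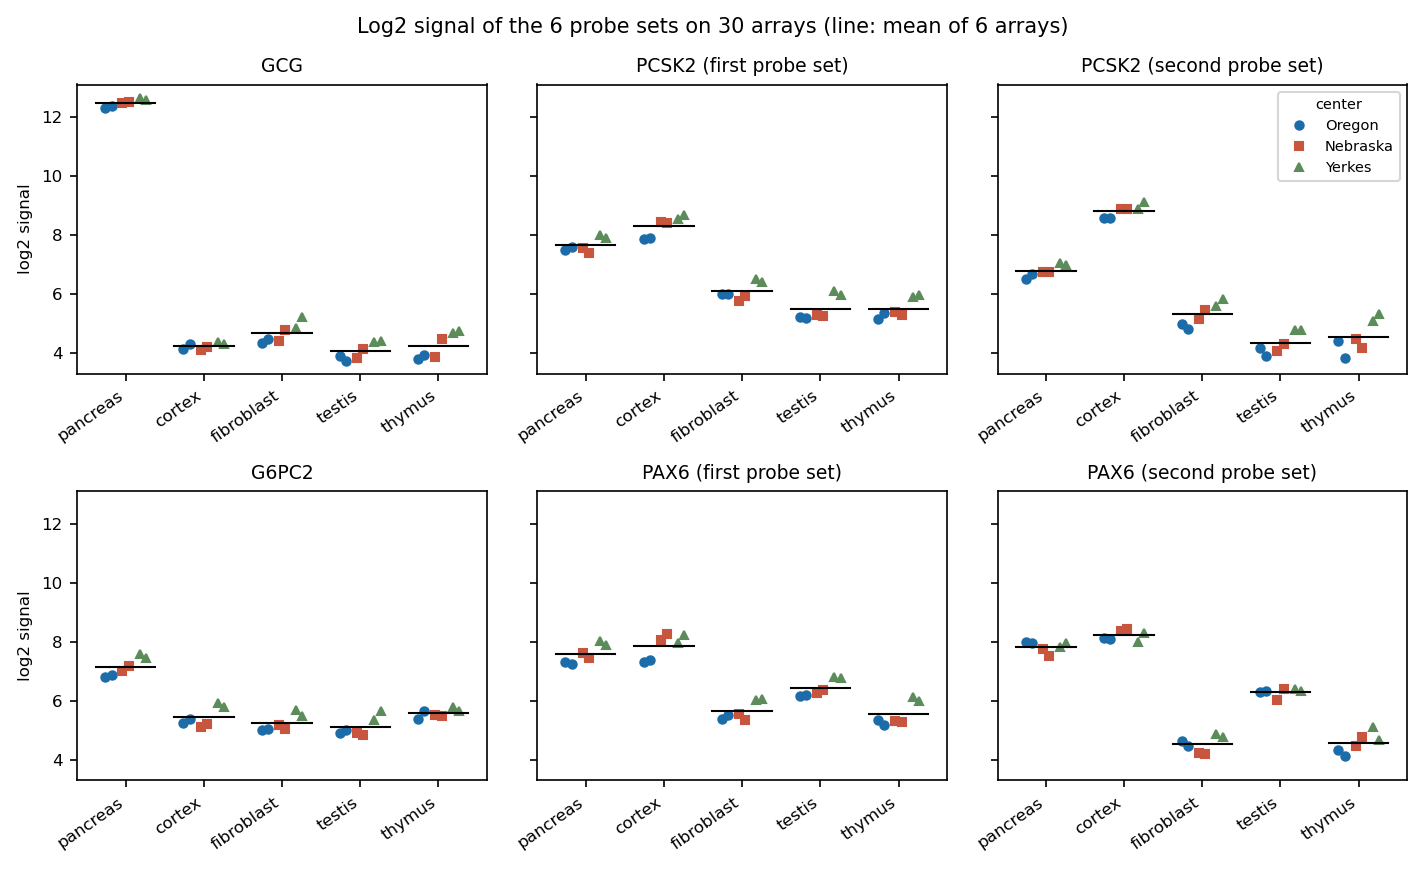
Log2 signal (y axis) of the 6 probe sets in the 5 tissues (x axis), each point an array, marked by center, with a line at the mean of 6 arrays; the first probe set of a gene is the one with the higher mean over 30 arrays. GCG lies at 12.31 to 12.66 in pancreas and at or below 5.22 in every other tissue, while PCSK2 and PAX6 stand high in both pancreas and cerebral cortex.

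GCG, the glucagon precursor, was the member with the largest difference. Its log2 signal on pancreas arrays ran from 12.31 through a median of 12.48 to 12.66, against 4.10, 4.27 and 4.40 in cerebral cortex. No array of another tissue came near the lowest pancreas array. The difference was 8.22 (SE 0.10, 95% interval 8.01 to 8.43), or 298.2-fold by these signals, with an adjusted p of 3.24e-34 (limma). Detection calls were not used here, and where the cerebral cortex signal is background this fold is only a lower bound. By center the difference was 8.10 (Oregon), 8.32 (Nebraska) and 8.24 (Yerkes). Counting GCG, 17 of the 52865 probe sets had a measured difference at least as large. On its own array GCG ranked between the 99.7 and 99.8 percentiles in pancreas, against 1.61 to 4.50 in cerebral cortex.

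Outside pancreas GCG stayed near the bottom of the scale. The means were 4.69 ± 0.33 in fibroblast, 4.26 ± 0.12 in cerebral cortex, 4.26 ± 0.43 in thymus and 4.07 ± 0.27 in testis (SD, n = 6 arrays each). Fibroblast lay above cerebral cortex by 0.43 (adjusted p = 0.000373, limma), whereas cerebral cortex, thymus and testis did not pass in any pair (adjusted p = 0.113 to 0.991, limma). Pancreas exceeded fibroblast by 7.79, testis by 8.40 and thymus by 8.22.

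PCSK2, the convertase that releases glucagon from its precursor, was highest in cerebral cortex and second in pancreas. By its first probe set (MmugDNA.869.1.S1_at), the one with the higher mean over 30 arrays, the lowest, median and highest log2 signals were 7.39, 7.58 and 8.003 in pancreas, against 7.89, 8.43 and 8.68 in cerebral cortex. The 6 pancreas and 6 cerebral cortex arrays overlapped, since the Yerkes pancreas arrays lay at 8.003 and 7.92 and the Oregon cerebral cortex arrays at 7.89 and 7.91. Within each center every pancreas array was below every cerebral cortex array. The difference was -0.65 (SE 0.08, 95% interval -0.82 to -0.48, adjusted p = 3.08e-08, limma), and the Oregon, Nebraska and Yerkes values were -0.35, -0.95 and -0.66. These 3 values differed by center (interaction adjusted p = 0.0134, limma), as they did for 8.54% of all probe sets.

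The second PCSK2 probe set (MmugDNA.11368.1.S1_at) gave a larger difference. Its log2 signal was 6.53 to 7.07 in pancreas, with a median of 6.75, against 8.57 to 9.12 in cerebral cortex, with a median of 8.87. Here the arrays of both tissues did not overlap. The difference was -2.02 (SE 0.11, adjusted p = 3.38e-17, limma), and it was -1.97, -2.13 and -1.98 at Oregon, Nebraska and Yerkes. Both probe sets followed each other over the 30 arrays (r = 0.97, which mostly reflects 5 tissues), yet their pancreas minus cerebral cortex differences lay 1.37 apart, so the direction is shared and the size is not settled.

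PCSK2 was lower in the remaining tissues. By the first probe set the means were 6.11 ± 0.29 in fibroblast, 5.52 ± 0.42 in testis and 5.52 ± 0.33 in thymus (SD, n = 6 arrays each), and testis and thymus did not pass against each other by either probe set (adjusted p = 0.997 and 0.0949, limma). Pancreas exceeded fibroblast by 1.55, testis by 2.15 and thymus by 2.15 with the first probe set, and by 1.47, 2.45 and 2.23 with the second.

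G6PC2, the islet form of the glucose-6-phosphatase catalytic subunit, was higher in pancreas than in each other tissue. Its log2 signal ran from 6.82 through 7.08 to 7.57 in pancreas, against 5.10, 5.31 and 5.93 in cerebral cortex. The lowest pancreas array, from Oregon, stood above the highest array of every other tissue. The difference from cerebral cortex was 1.71 (SE 0.08, 95% interval 1.54 to 1.87, adjusted p = 1.13e-18, limma), or 3.26-fold, with 1.53, 1.93 and 1.66 at Oregon, Nebraska and Yerkes. A larger difference was found for 925 probe sets. In rank on its array, G6PC2 stood at the 70.4 to 78.6 percentiles in pancreas, against 17.8 to 27.1 in cerebral cortex.

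The other tissues lay close together for G6PC2. Thymus was at 5.57 ± 0.15, cerebral cortex at 5.44 ± 0.34, fibroblast at 5.24 ± 0.29 and testis at 5.11 ± 0.32 (SD, n = 6 arrays each). The neighbours thymus and cerebral cortex (adjusted p = 0.152, limma) and fibroblast and testis (adjusted p = 0.172, limma) did not pass, and cerebral cortex exceeded fibroblast by 0.20 (adjusted p = 0.0296, limma). Pancreas exceeded thymus by 1.57, fibroblast by 1.91 and testis by 2.03.

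PAX6, the paired-box factor of islets and forebrain, was high in both pancreas and cerebral cortex, with a small difference between them, and lower in the remaining tissues. By the first probe set (MmugDNA.793.1.S1_at) the lowest, median and highest log2 signals were 7.23, 7.53 and 8.01 in pancreas, against 7.32, 8.01 and 8.25 in cerebral cortex. The arrays of both tissues overlapped, and at Oregon and Yerkes the means lay close, at 7.27 and 7.95 in pancreas against 7.34 and 8.08 in cerebral cortex. At Nebraska they were apart, with pancreas arrays at 7.60 and 7.45 against cerebral cortex arrays at 8.06 and 8.25. The difference over all centers was -0.28 (SE 0.10, 95% interval -0.48 to -0.08, adjusted p = 0.0111, limma), and the Oregon, Nebraska and Yerkes values were -0.07, -0.63 and -0.14 (interaction adjusted p = 0.0272, limma). The call rested on Nebraska. Without the second cerebral cortex aliquot of Nebraska the difference was -0.18 (adjusted p = 0.0621, limma), and without all Nebraska arrays it was -0.10 (adjusted p = 0.226, limma).

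The second PAX6 probe set (MmugDNA.4541.1.S1_at) gave the same direction. Its log2 signal was 7.50 to 7.99 in pancreas, against 8.004 to 8.43 in cerebral cortex. The highest pancreas array, at 7.99, and the lowest cerebral cortex array, at 8.004, nearly met without crossing. The difference was -0.39 (SE 0.12, adjusted p = 0.00413, limma), with -0.14, -0.78 and -0.26 at Oregon, Nebraska and Yerkes, and without the Nebraska arrays it was -0.20 (adjusted p = 0.167, limma). Its center differences did not pass (interaction adjusted p = 0.0836, limma).

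In the remaining tissues PAX6 had an intermediate level in testis and was low in fibroblast and thymus. Testis was at 6.43 ± 0.29, fibroblast at 5.65 ± 0.32 and thymus at 5.54 ± 0.41 by the first probe set, and at 6.30 ± 0.14, 4.53 ± 0.28 and 4.58 ± 0.35 by the second (SD, n = 6 arrays each). Fibroblast and thymus did not pass against each other by either probe set (adjusted p = 0.344 and 0.743, limma), and testis exceeded thymus by 0.89 and 1.72. Pancreas exceeded testis by 1.15 and 1.53, fibroblast by 1.93 and 3.30, and thymus by 2.04 and 3.25. Both probe sets moved together over 30 arrays (r = 0.98, again mostly the 5 tissues).

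Read across the tissues, all 6 probe sets were higher in pancreas than in fibroblast, testis and thymus, calls that 48.7%, 49.5% and 50.2% of all probe sets also had. GCG and G6PC2 were higher in pancreas than in each of the other 4 tissues, as were 25.2% of all probe sets. Pancreas and cerebral cortex arrays did not overlap for 4 of the 6 probe sets, those of GCG and G6PC2 and the second ones of PCSK2 and PAX6, against 22.8% of all probe sets. An exact permutation test that exchanged arrays within centers (two-sided, 216 arrangements, smallest possible p = 0.00926) gave p = 0.00926 for 5 probe sets and p = 0.037 for the first PAX6 probe set.

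How much of the smaller differences depends on the scale was seen by repeating them after quantile normalization of all 30 arrays together, which gives every array the same distribution. GCG was then at 8.34 and G6PC2 at 1.81. The first PCSK2 probe set was at -0.36 (SE 0.08, adjusted p = 0.000132, limma) and the second at -2.04. PAX6 no longer passed, at -0.01 (95% interval -0.19 to 0.17, adjusted p = 0.916, limma) with the first probe set and -0.05 (95% interval -0.29 to 0.19, adjusted p = 0.718, limma) with the second. The plot of differences by center and normalization shows this beside the values as deposited.

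**Figure D2:**
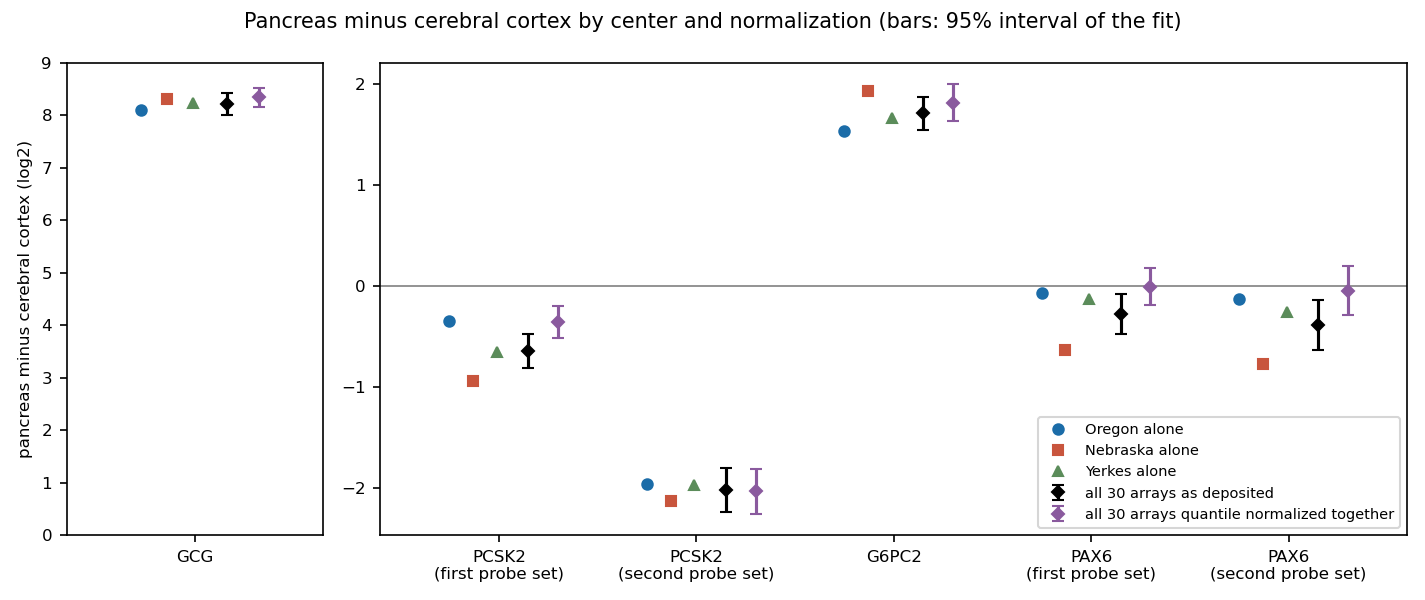
Pancreas minus cerebral cortex on the log2 scale (y axis) for each probe set (x axis), as the difference of means of 2 and 2 arrays at each center and as the limma estimate with its 95% interval over 30 arrays, as deposited and after joint quantile normalization. The left panel has its own axis for GCG (8.22); the PAX6 estimates of -0.28 and -0.39 move to -0.01 and -0.05 after joint normalization, and the Nebraska points lie lowest for PCSK2 and PAX6.

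The rank of a probe set among all probe sets of its own array needs no scaling between arrays, and it was compared only between arrays of the same probe set. GCG gained 96.8 percentile points and G6PC2 52.1 in pancreas over cerebral cortex. PCSK2 was lower by -3.90 points with the first probe set (exact permutation p = 0.0185) and by -28.9 points with the second (exact permutation p = 0.00926). For the first PCSK2 probe set the Oregon, Nebraska and Yerkes differences were -0.47, -5.69 and -5.53 points, and the Oregon ranks of both tissues overlapped. The first PAX6 probe set averaged the 82.9 percentile in pancreas and the 82.8 percentile in cerebral cortex (difference 0.07 points, exact permutation p = 0.944), and its Oregon, Nebraska and Yerkes differences were 1.92, -2.58 and 0.89 points. The sign for PAX6 on this scale thus varied with the center.

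**Figure D3:**
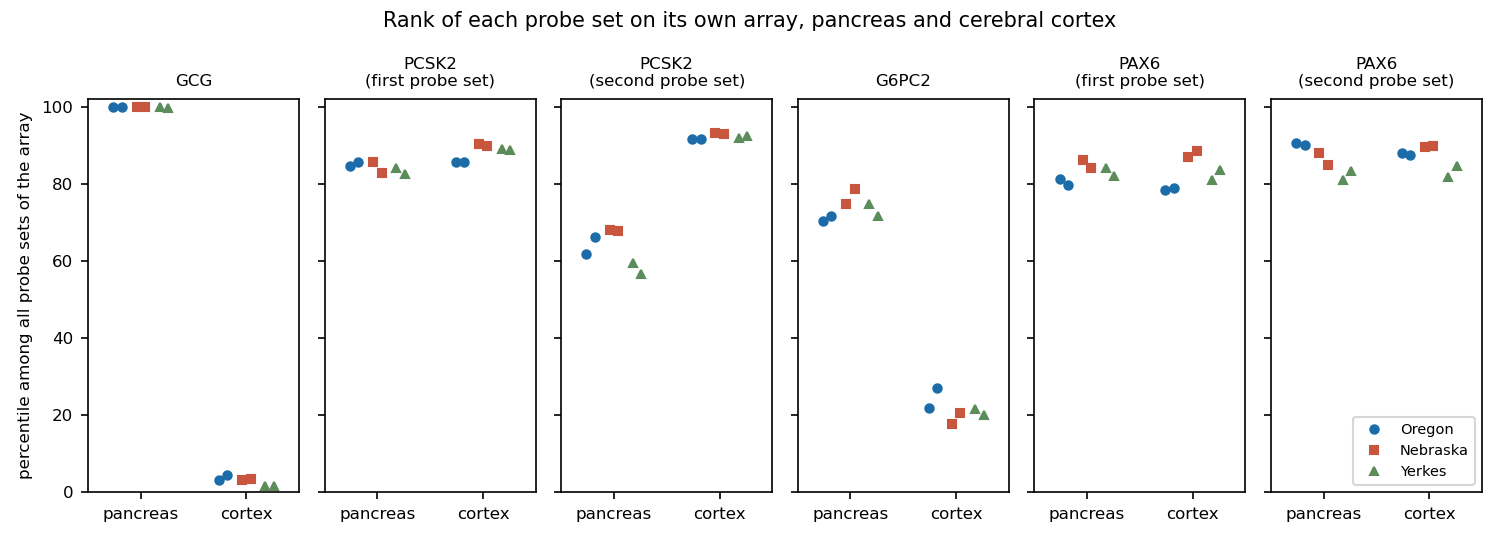
Percentile of each probe set among all probe sets of its array (y axis) on the 6 pancreas and 6 cerebral cortex arrays (x axis), marked by center. GCG and G6PC2 separate widely (96.8 and 52.1 points), the second PCSK2 probe set by -28.9 points, and the PAX6 points of both tissues overlap.

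The 4 genes were set among 84 listed genes of islet function, of which 54 had a probe set with that single symbol. Of these, 36 were higher, 15 lower and 3 not called in pancreas against cerebral cortex, beside 48.7% higher and 27.4% lower among all probe sets. The median log2 difference of the 54 was 0.47, beside 0.19 for all probe sets and 0.10 for all those with a single symbol. After subtraction of the overall median, 32 of the 54 were higher and 15 lower, beside 16142 higher and 18601 lower of all 52865 probe sets. Of 23 genes with several probe sets, G6PC1, SLC2A1 and SLC2A3 had probe sets called in opposite directions. Insulin (INS), IAPP, SST, PPY, PCSK1, NEUROD1 and MAFA were not analysed here because no probe set carried them as its single symbol.

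Among islet and gut hormones, 3 of 7 were measured. Beside GCG, PYY, a gut peptide also made in islets, was at 9.25 in pancreas against 8.76 in cerebral cortex (difference 0.49, SE 0.09), and its other probe set differed by 0.84. By the former PYY probe set fibroblast, testis and thymus were not far below, at 8.31, 8.55 and 8.50. GHRL, the ghrelin precursor, was at 6.97 against 6.95 and was highest in testis at 7.70 by this probe set, while its other probe set was higher in pancreas by 1.09.

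Of the prohormone processing genes 7 of 13 were measured, and 4 were higher, 2 were lower and 1 was not called. Among all probe sets 48.7% were higher and 27.4% lower. After subtraction of the overall median 3 of the 7 were higher, 2 lower and 2 not called, beside 16142 higher and 18601 lower of all 52865 probe sets. PCSK1N, the proSAAS inhibitor of the related convertase PCSK1, was lower like PCSK2, at 7.85 in pancreas against 9.68 in cerebral cortex (difference -1.83, SE 0.09). FURIN, the ubiquitous Golgi convertase, was at 9.51 against 8.35 (difference 1.17), below fibroblast at 9.84. CPD, a carboxypeptidase that trims cleaved peptides, was at 9.59 against 8.61, though its 3 other probe sets did not pass. Of the other convertases, PCSK4 differed by 0.51 and PCSK7 by 0.17, a value below the median shift of all probe sets, and PCSK5 did not pass (0.09, adjusted p = 0.273, limma).

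Granule and exocytosis genes, which endocrine cells share with neurons, went both ways. Of 10 measured among 15 listed, 6 were lower in pancreas and 4 were higher, with a median of -1.28. The 6 lower ones were highest in cerebral cortex. After joint quantile normalization 5 were lower and 5 higher, beside 14761 lower and 22298 higher of all 52865 probe sets. CHGB, a granule matrix protein, was at 7.14 in pancreas against 10.91 in cerebral cortex (difference -3.76, SE 0.13), and SCG2, a related granin, at 7.92 against 10.53. VGF, a neuropeptide precursor, differed by -2.94 and CADPS, a priming factor of dense-core vesicles, by -2.48. In the other direction SCGN, a calcium-binding protein of islet cells, was at 9.52 against 6.79 (difference 2.73, SE 0.08), and SLC30A8, the zinc transporter of insulin granules, differed by 1.32. The neuronal marker list itself stood at 6.38 to 7.001 on pancreas arrays against 10.73 to 11.32 on cerebral cortex arrays, and its part in these lower values was not tested.

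Around G6PC2, 13 of 16 genes of glucose 6-phosphate and glucose sensing were measured. Of these 8 were higher and 5 lower, beside 48.7% higher and 27.4% lower of all probe sets. After joint quantile normalization 7 were higher, 5 lower and 1 not called, beside 22298 higher and 14761 lower of all 52865 probe sets. SLC37A4, which carries glucose 6-phosphate into the endoplasmic reticulum where G6PC2 acts, was at 8.89 in pancreas against 7.21 in cerebral cortex (difference 1.68, SE 0.07). G6PC3, the ubiquitous paralog, differed by 0.51 and was highest in fibroblast. G6PC1, the liver and kidney paralog, gave -0.59, 0.33 and -0.01 with its 3 probe sets, so it had no single direction. HK1, a hexokinase, was at 6.75 against 10.92 (difference -4.18) by one probe set, while its 3 others gave -0.53, -0.69 and 0.05. By that first probe set HK1 was also high in fibroblast, at 10.61. The glucose carriers SLC2A3 and SLC2A1 differed by -2.54 and -1.36, each with 1 probe set called in the opposite direction (0.20 and 0.40). By the probe sets with the highest mean, SLC2A3 and SLC2A1 were highest in fibroblast, at 10.19 and 8.48. The remaining measured carrier, SLC2A2, went the other way, with a difference of 1.01 (SE 0.10). It was called higher in pancreas than in each other tissue.

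Most of the measured islet transcription factors were higher in pancreas. Of 16 measured among 26 listed, 13 were higher, PAX6 and RFX3 were lower and 1 was not called, with a median of 0.70. After joint quantile normalization 14 were higher, 1 was lower and PAX6 was not called, beside 22298 higher and 14761 lower of 52865 probe sets. ISL1, a LIM-homeobox factor of islets, was at 7.71 against 4.66 (difference 3.05, SE 0.11), but testis at 7.18 and thymus at 6.75 lay much nearer to pancreas. FOXA1 and FOXA2, forkhead factors of endodermal epithelia that acinar and duct cells also make, differed by 2.46 and 2.36, and ONECUT1, a factor of pancreatic progenitors and ducts, by 2.42. RFX6, a factor of islet hormone cells, was at 7.02 against 4.98 (difference 2.04, SE 0.11). Without a center term 9 of the 16 were higher, beside 10851 of all 52865 probe sets.

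Within the PAX family 7 of 9 were measured. PAX2, PAX7, PAX4, PAX8, PAX1 and PAX3 were higher in pancreas than in cerebral cortex, by 0.70, 0.67, 0.67, 0.53, 0.46 and 0.38, and PAX6 alone was called lower. These sizes are common, as the upper quartile of the differences of all probe sets was 0.45. PAX8 also had probe sets at 0.13 and 0.04 and PAX3 had one at 0.17 that did not pass, while their remaining probe sets were called higher. PAX4, a beta cell factor, was at 7.14 against 6.47, and PAX1, a factor of thymic epithelium, was highest in thymus at 8.51. After joint quantile normalization the same count of 6 was higher, beside 22298 of all 52865 probe sets, and PAX6 was not called. Without a center term 4 were higher, beside 10851 of all probe sets. The plot of the islet lists places the members among these genes.

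**Figure D4:**
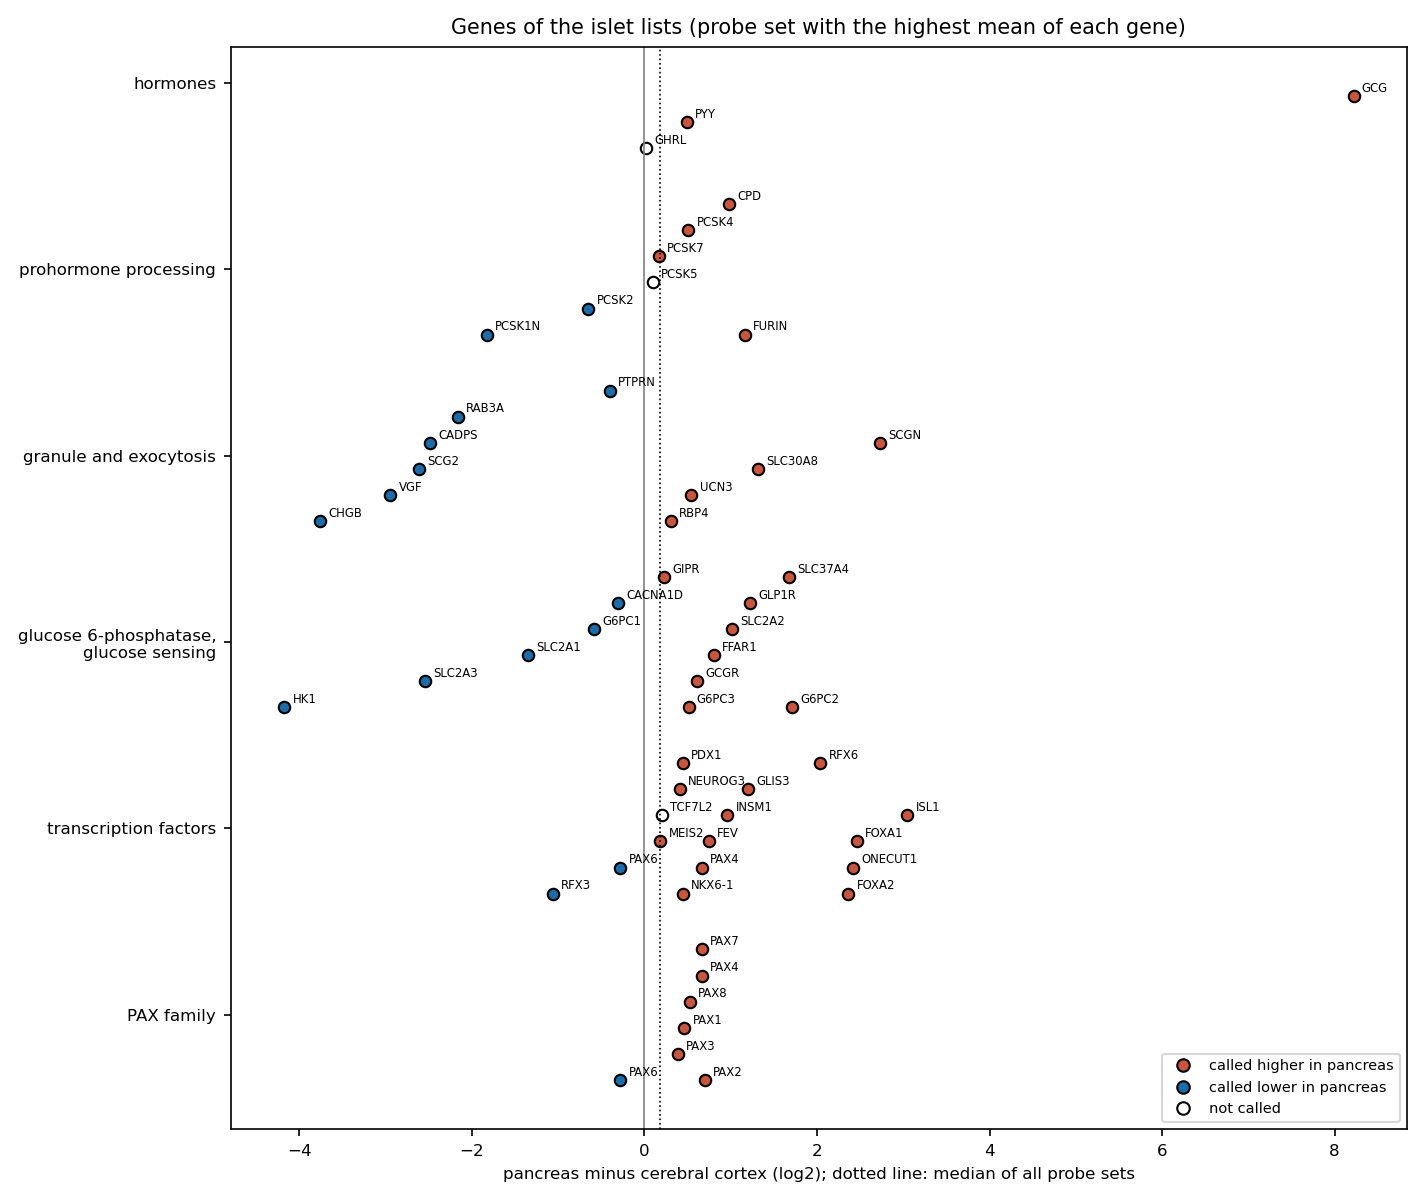
Pancreas minus cerebral cortex on the log2 scale (x axis) for the measured genes of 6 lists (rows), with 1 probe set per gene (the highest mean over 30 arrays), filled by call at an adjusted p under 0.05 (limma) and with a dotted line at the median of all probe sets (0.19); height within a row has no meaning. GCG stands alone at 8.22, the granule genes spread from -3.76 to 2.73, and PAX6 lies left of the other PAX genes.

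The genes most like each member were found by the root mean square (RMS) difference of log2 signal over 30 arrays, after the mean of each center was subtracted, among 14132 other symbols. For GCG they were SPINK1, the acinar trypsin inhibitor (RMS 0.23), LOC716882 (0.25) and PNLIPRP1, an acinar lipase-related protein (0.25). For G6PC2 they were CD200R1, BCL2L14 and FBP1 (0.21 each), of which FBP1 encodes fructose-1,6-bisphosphatase, at 8.03 in pancreas against 5.98 in cerebral cortex. For PCSK2 they were LOC706528 (0.33), MAL (0.35) and DUSP26 (0.38), and for PAX6 they were SLC35F3 (0.26), PIP5K1B (0.27) and again MAL (0.29), a proteolipid of myelin and epithelia. All 12 correlations over the 30 arrays lay between 0.95 and 1.00, and they rest on 5 tissues.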

How the data were processed

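The deposited values are log2 signals of 52865 probe sets on 30 arrays. Per the methods, the authors corrected background with the MAS 5.0 procedure, quantile normalized the arrays of each center separately and summarized all 30 arrays with RMA, and these steps were not repeated. Array means were 6.32 to 6.33 at Oregon, 6.35 to 6.39 at Nebraska and 6.90 to 6.93 at Yerkes, so center was a term of the model. Tissues were compared with limma 3.58.1 in R 4.3.3 over all 30 arrays, with Benjamini-Hochberg adjustment over all probe sets, and the fit was tested on simulated data. No probe set was filtered out. Probe sets took symbols from the platform annotation, 27896 had no single symbol, and each gene was represented by its probe set with the highest mean. Named genes were the members, their paralogs, all genes of islet lists of up to 7 and otherwise the 5 largest differences that passed with 1 sign at 3 centers, and the 3 most alike symbols; a few others are given as context. The members and lists were chosen with earlier results of these data known. Same-numbered aliquots of pancreas and cerebral cortex did not deviate together (r = 0.01, -0.03 and -0.01 at Oregon, Nebraska and Yerkes), and those of the other tissues were not checked. Precision is limited by 6 arrays per tissue. Alternatives varied normalization, center term, aliquots, centers, arrays, probe sets and filter. Gene coordinates and sequences were not used here.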

Additional observations from a re-analysis of the deposited data

Results flagged for a closer look

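In testis, the first Nebraska aliquot gave the second PAX6 probe set (MmugDNA.4541.1.S1_at) its lowest value, 6.03, at a distance from the next lowest array (6.29) that is large for a group of 6. Of 30 groups of arrays examined this was the single such case, and chance gives about 1 in 20. The pancreas minus cerebral cortex difference depended on the center for the first PCSK2 probe set (interaction adjusted p = 0.0134, limma), at -0.35, -0.95 and -0.66 for Oregon, Nebraska and Yerkes. It also did so for the first PAX6 probe set (interaction adjusted p = 0.0272, limma), at -0.07, -0.63 and -0.14.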

How the results depend on the processing

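GCG, G6PC2 and both PCSK2 probe sets kept their direction and call in each alternative that gave them a value, though the restriction to brighter probe sets left out GCG, G6PC2 and the second PCSK2 and PAX6 probe sets, and leaving out single arrays moved them only within 8.18 to 8.28, 1.67 to 1.74 and -0.69 to -0.59 (-2.09 to -1.98 for the second PCSK2 probe set). PAX6 did not. Its first probe set lost the call at -0.0113 after joint quantile normalization, -0.28 without a center term (adjusted p = 0.264, limma) or with the mean of both aliquots (adjusted p = 0.073, limma), -0.0709 at Oregon alone and -0.14 at Yerkes alone, and ranged from -0.34 to -0.18 with 1 array left out. Added after seeing the data, it was -0.10 without Nebraska arrays and turned to 0.07 percentile points by rank. The number of probe sets called higher in pancreas was 25728. It was 10851 without a center term and 11356 among probe sets at or above the median signal. After subtraction of the median difference, also added later, it was 16142. Among the brighter probe sets, which were fewer, lower calls were 10611 instead of 14480. Islet genes called higher were 21 there instead of 36, and those called lower were 13 instead of 15. Calls in the higher direction were 64.0% of all calls in the main fit. They were 50.4% without a center term, 51.7% among brighter probe sets and 46.5% after subtraction of the median difference. With 1 array left out, higher calls were 24709 to 25966 and islet genes higher 34 to 37. A replicate block of center by aliquot number gave 25484 higher and 14371 lower and changed no call of a member, with PAX6 at -0.28 (adjusted p = 0.0167, limma). The causes were not tested. The 6 arrays of 1 RNA limit every value.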
